A study of Mus musculus with 24 samples.

Results

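The genes described here are the 3 embryonic globin genes Hbb-bh1, Hbb-y and Hba-x and the heme synthesis gene Alas2, which are 4 of the 19938 genes measured. They were named in advance by symbol, and each was represented by a single probe set carrying that symbol alone. Their fall in Eed knockout (KO) cells on day 7 was known when they were chosen, so every day 7 value of KO against wild type (WT) below is a description and is given no test. The gene lists used below were also chosen with earlier results of these data known, so their counts are not independent of these data.

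The RNA came from 4 clones of mouse embryonic stem cells (ESCs): Eed KO E14, Eed KO J1, WT J1 and WT V6.5. Each clone was measured on days 0, 3 and 7 of differentiation with 2 arrays a day, so there were 4 arrays per genotype and day and 24 in all. Day 0 cells were undifferentiated and had grown with the cytokine LIF on inactivated mouse embryonic fibroblasts (MEFs). After removal of the MEFs and of LIF, the cells formed embryoid bodies (EBs), aggregates in which ESCs differentiate, in hanging drops and later in suspension. EED belongs to the core of Polycomb repressive complex 2, the enzyme complex that methylates histone H3 at lysine 27, and the study's title concerns the silencing of pluripotency genes. Only line J1 was measured both as KO and as WT, and how the KO was made is not stated in the labels. Whether the 2 arrays of a clone were grown as separate cultures is not labelled, so the p-values rest on a spread between samples that may be technical. They also call the EBs of days 3 and 7 embryonic stem cells, while the mean of 14 pluripotency genes was 10.68 to 11.22 in KO and 8.13 to 8.55 in WT arrays of day 7.

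Hemoglobin is built from alpha-type and beta-type globin chains, each holding a heme group that binds oxygen. The first red blood cells of the mouse embryo arise in the yolk sac and use embryonic chains, which adult chains later replace. Hba-x encodes the embryonic alpha-type chain zeta, and Hbb-y and Hbb-bh1 encode the embryonic beta-type chains epsilon-y and beta-H1. Alas2 encodes the red cell form of 5-aminolevulinate synthase, the mitochondrial enzyme that starts heme synthesis. EBs form such primitive red cells during their first week of differentiation.

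In the RefSeq annotation of assembly GRCm38.p6, the Hbb-bh1 gene lies at chr7:103841638-103843162 and Hbb-y at chr7:103851754-103853207, in the beta-globin cluster. Hba-x lies at chr11:32276600-32278116 in the alpha-globin cluster, and Alas2 at chrX:150547417-150570622. The genome build behind the array's own annotation is not given in the sources used here. Promoter sequence was matched for 3 of the 4 genes, Hbb-bh1 being the exception. The 250 bases before the start of each are shown because these genes moved together although they lie on 3 chromosomes. They are written 5′ to 3′ in the direction of the gene, and capitals mark the matches to the motifs described after them.
Hbb-y, chr7:103853208-103853457, minus strand: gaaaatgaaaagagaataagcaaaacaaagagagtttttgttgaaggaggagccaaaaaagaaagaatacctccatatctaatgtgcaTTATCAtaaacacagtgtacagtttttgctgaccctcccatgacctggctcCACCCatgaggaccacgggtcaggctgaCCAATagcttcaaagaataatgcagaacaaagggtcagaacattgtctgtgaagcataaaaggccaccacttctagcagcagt
Hba-x, chr11:32276350-32276599, plus strand: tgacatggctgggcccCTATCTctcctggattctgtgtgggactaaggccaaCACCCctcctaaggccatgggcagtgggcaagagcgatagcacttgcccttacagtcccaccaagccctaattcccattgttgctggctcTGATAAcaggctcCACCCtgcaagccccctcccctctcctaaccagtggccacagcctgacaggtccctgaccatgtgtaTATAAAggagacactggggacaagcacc
Alas2, chrX:150547167-150547416, plus strand: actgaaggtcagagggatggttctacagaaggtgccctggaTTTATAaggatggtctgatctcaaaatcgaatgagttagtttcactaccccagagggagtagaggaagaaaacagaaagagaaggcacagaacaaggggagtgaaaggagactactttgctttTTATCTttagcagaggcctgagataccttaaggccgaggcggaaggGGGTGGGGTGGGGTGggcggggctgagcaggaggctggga

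The motifs searched on both strands were 4 GATA words, AGATAA with its variant AGATAG and also TGATAA with its variant TGATAG. Such words are bound by factors such as GATA1. The remaining motifs were the box CACCC, the box CCAAT and the word TATAAA. Of the 32851 RefSeq windows of this length 26.5% held at least 1 of the 4 GATA words. CACCC was found in 52.0% of these windows, CCAAT in 33.8% and TATAAA in 12.4%. The Hbb-y window held TGATAA on the minus strand 162 to 157 bases before the start, CACCC at 111 to 107 and CCAAT at 83 to 79. The Hba-x window held AGATAG on the minus strand at 234 to 229, TGATAA at 108 to 103, CACCC at 198 to 194 and at 95 to 91, and TATAAA at 28 to 23. The Alas2 window held AGATAA on the minus strand at 86 to 81 and CACCC 3 times on the minus strand between bases 40 and 26. It also held TATAAA on the minus strand at 209 to 204. The Hbb-y and Hba-x windows held 1 CpG each and the Alas2 window 4, against a median of 6 (quartiles 2 and 16) over all windows. A match shows that these letters are present and not that a factor binds them.

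Eed signal was low in every KO array, at 6.09 to 6.64 on day 7 against 9.37 to 9.79 in WT arrays. All levels are on the authors' log2 scale, and differences are KO minus WT or later minus earlier day on that scale. SE is the standard error of the model, and SD describes the spread of 4 arrays. A gene was called where its adjusted p from limma, by Benjamini-Hochberg over all genes, was under 0.05 and the change at least 2-fold. The repeat arrays of WT J1 on day 7 stood apart from each other. They correlated at r = 0.962 and differed by at least 2-fold at 1256 genes, against r of 0.990 to 0.995 and 21 to 163 genes in the other 11 pairs. An alternative added after seeing the data therefore leaves out both arrays. Under it, the genes named below as called lower or higher in KO on day 7 kept their calls, except Slc40a1, Gp9, Mpo and Spi1.

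Hbb-bh1 was near its lowest level in all samples except the WT EBs of day 7. On day 7 the level in KO was 5.38 and 4.70 on the E14 arrays and 6.03 and 5.87 on the J1 arrays, and in WT it was 12.37 and 13.29 on the J1 arrays and 13.07 and 12.85 on the V6.5 arrays. Every WT array of that day lay far above every KO array. The means were 5.49 ± 0.60 in KO and 12.90 ± 0.39 in WT (SD, n = 4 each), a difference of −7.40 (SE 0.323), or 169-fold. In these bulk samples fewer cells of a type and less RNA per cell cannot be told apart. On day 0 the level in KO was 4.78 and 4.93 (E14) and 4.84 and 5.05 (J1), while WT cells had 5.36 and 6.07 (J1) and 5.08 and 5.34 (V6.5). All 4 KO arrays thus lay below all 4 WT arrays on day 0, by a margin that did not pass the test. On day 3 the KO levels were 5.20, 4.65, 6.0 and 5.58 in the same order, and the WT levels 5.37, 6.30, 5.22 and 4.85, so that the groups overlapped.

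Hbb-y showed the same picture. Its day 7 level in KO was 5.60 and 5.23 (E14) and 6.38 and 5.74 (J1), while WT cells had 11.74 and 13.14 (J1) and 12.50 and 12.02 (V6.5). No KO array of day 7 came near a WT array. The means were 5.74 ± 0.48 in KO and 12.35 ± 0.61 in WT (SD, n = 4 each), a difference of −6.61 (SE 0.282), or 97.9-fold. On day 0 the arrays spanned 5.17 to 5.62 in KO and 5.15 to 5.91 in WT. On day 3 they spanned 5.26 to 6.02 in KO and 5.33 to 5.99 in WT, and the groups overlapped on both days.

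Hba-x, the alpha-type partner of these chains, followed them. Its day 7 level in KO was 6.60 and 6.16 (E14) and 7.08 and 7.19 (J1), while WT cells had 11.87 and 13.23 (J1) and 12.72 and 12.36 (V6.5). The KO arrays lay close to the day 0 range and far from every WT array. The means were 6.76 ± 0.47 in KO and 12.55 ± 0.58 in WT (SD, n = 4 each), a difference of −5.79 (SE 0.251), or 55.3-fold. Day 0 arrays spanned 6.31 to 6.70 in KO and 6.5 to 6.90 in WT, and day 3 arrays 6.19 to 6.79 in KO and 6.52 to 7.09 in WT.

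Alas2 was flat in KO and varied most among the WT arrays of day 7. Its day 7 level in KO was 5.95 and 5.76 (E14) and 5.93 and 5.98 (J1), while WT cells had 7.96 and 11.11 (J1) and 10.01 and 9.17 (V6.5). The KO arrays lay within a narrow band, while the WT arrays were spread widely above it. The means were 5.90 ± 0.10 in KO and 9.56 ± 1.33 in WT (SD, n = 4 each), a difference of −3.66 (SE 0.419), or 12.6-fold. Day 0 arrays spanned 5.84 to 6.23 in KO and 5.86 to 6.32 in WT, and day 3 arrays 5.94 to 6.40 in KO and 5.87 to 6.29 in WT.

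**Figure D1:**
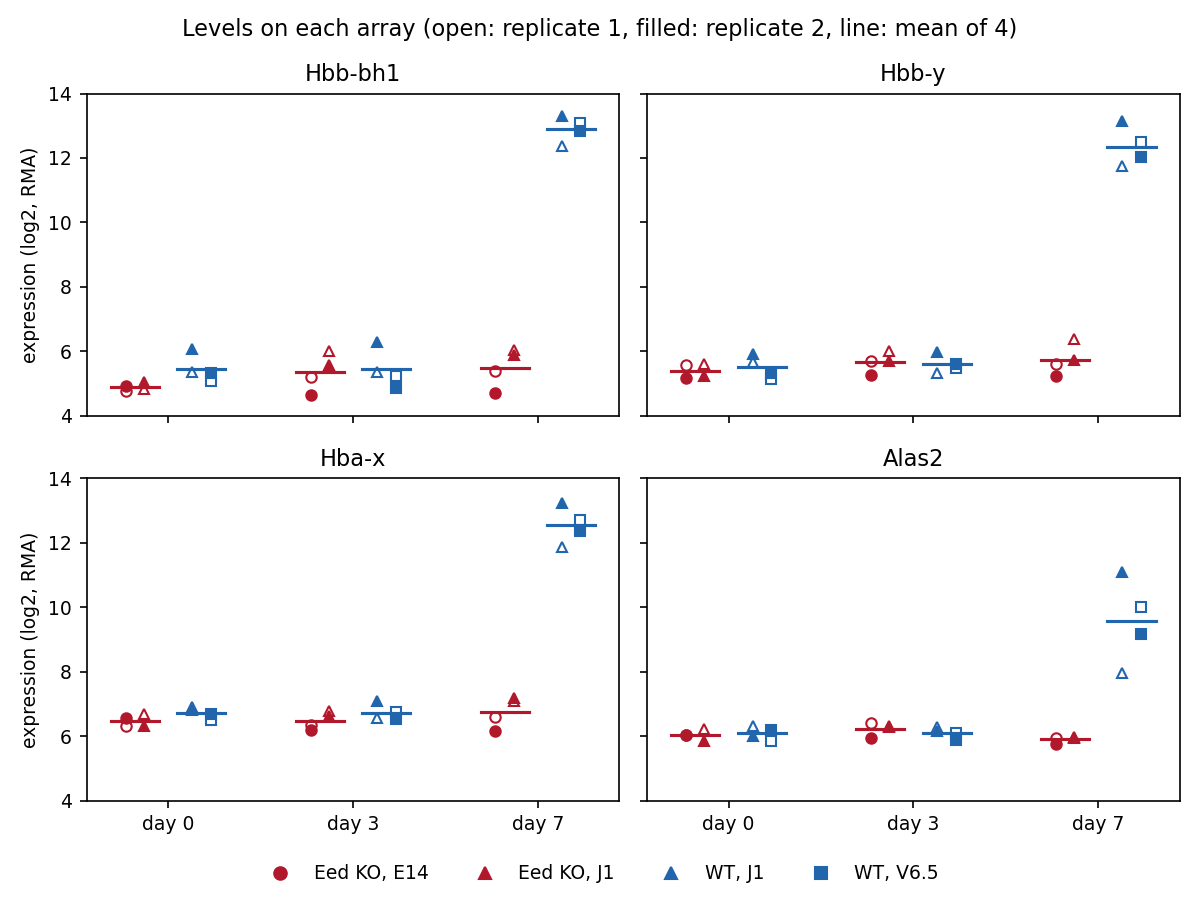
Level of each gene (log2, RMA) on each of the 24 arrays by day, with Eed KO to the left of WT and a line at the mean of 4. Only the WT arrays of day 7 leave the low band, which ends at 6.30 for Hbb-bh1, 6.38 for Hbb-y, 7.19 for Hba-x and 6.40 for Alas2.

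For each of these genes the lowest WT array of day 7 lay above the highest of the other 20 arrays. The gap was 6.07 for Hbb-bh1, 5.36 for Hbb-y, 4.67 for Hba-x and 1.56 for Alas2. Among the falls of all 19938 genes on day 7, Hbb-bh1, Hbb-y and Hba-x ranked 1, 2 and 3, and Alas2 ranked 7. Since the genes were chosen on this difference, the ranks describe the choice, and 1.28% of all genes were called lower.

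The difference was of like size whichever clones were set side by side. For Hbb-bh1 the day 7 mean of E14 KO lay −7.80 from J1 WT and −7.92 from V6.5 WT, and that of J1 KO lay −6.88 and −7.01 from them. The 4 such differences ran from −7.03 to −6.20 for Hbb-y and from −6.17 to −5.41 for Hba-x. They ran from −3.73 to −3.58 for Alas2. Between KO and WT of the single line J1, the differences were −6.88, −6.38, −5.41 and −3.58 in the order Hbb-bh1, Hbb-y, Hba-x and Alas2. Without both WT J1 arrays of day 7, the differences over the other arrays were −7.62, −6.60, −5.84 and −3.72.

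Before day 7 no genotype difference was detected. On day 0, 0 of the 4 genes were called with limma, where 0.552% of all genes were, and 0 of 4 had an unadjusted p under 0.05. Hbb-bh1 had the widest difference of that day, −0.56, with a 95% interval of −1.23 to 0.10 (adjusted p = 0.51). Hbb-y differed by −0.12 (−0.70 to 0.47, adjusted p = 0.93). Hba-x differed by −0.25 (−0.77 to 0.27, adjusted p = 0.79), and Alas2 by −0.06 (−0.92 to 0.81, adjusted p = 0.98). The interval of Hbb-bh1 alone reached beyond 2-fold.

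On day 3, 0 of the 4 genes were called, against 0.757% of all genes, and 0 had an unadjusted p under 0.05. The differences were −0.08 for Hbb-bh1 (95% interval −0.75 to 0.59), 0.07 for Hbb-y (−0.51 to 0.65), −0.24 for Hba-x (−0.76 to 0.28) and 0.13 for Alas2 (−0.74 to 0.99). Their adjusted p-values were 0.98, 0.98, 0.83 and 0.98 in that order.

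**Figure D2:**
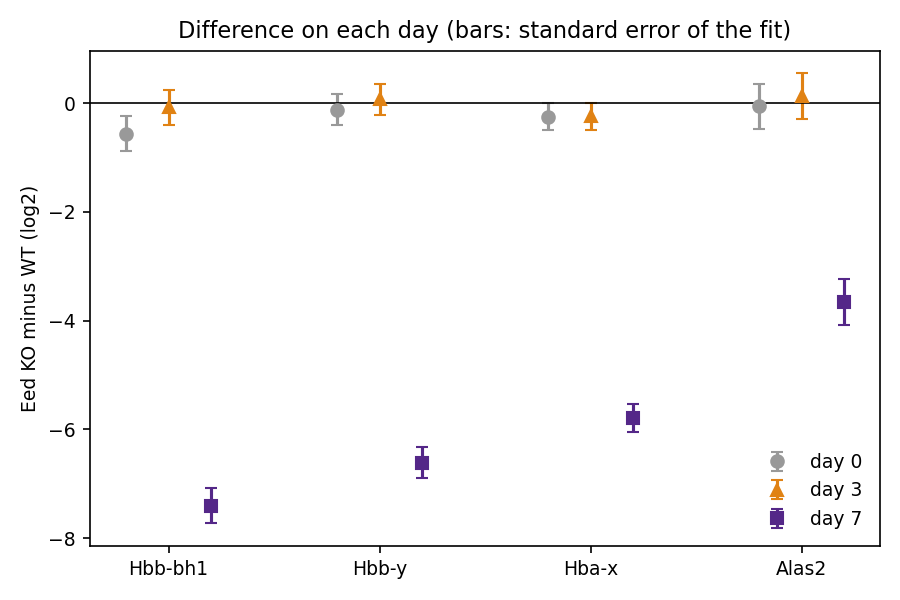
KO minus WT difference of each gene (log2) on days 0, 3 and 7, with bars of 1 standard error of the fit over all 24 arrays. The points of days 0 and 3 lie between −0.56 and 0.13, and those of day 7 between −7.40 and −3.66.

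In WT cells the genes came on between days 3 and 7. From day 0 to day 3 the WT changes were −0.03 for Hbb-bh1, 0.08 for Hbb-y, 0.01 for Hba-x and 0.01 for Alas2, with adjusted p-values of 0.98, 0.92, 0.99 and 0.99. With limma 0 of 4 were called and 0 had an unadjusted p under 0.05, where 2.04% of all genes were called. From day 3 to day 7 the WT arrays gained 7.46 at Hbb-bh1 (SE 0.275), 6.75 at Hbb-y (SE 0.240), 5.82 at Hba-x (SE 0.214) and 3.45 at Alas2 (SE 0.356). These gains use the day 7 arrays on which the genes were chosen and are therefore descriptions. The globins had the 3 widest gains of all genes, and Alas2 ranked 32. Without both WT J1 arrays of day 7 the gains were 7.67, 6.74, 5.86 and 3.52 in that order.

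In KO cells the levels moved little over the whole course. From day 0 to day 3, KO Hbb-bh1 changed by 0.46 (95% interval −0.11 to 1.03, adjusted p = 0.40), Hbb-y by 0.27 (adjusted p = 0.62), Hba-x by 0.01 (0.99) and Alas2 by 0.20 (0.84). With limma 0 of 4 were called and 0 had an unadjusted p under 0.05, where 1.17% of all genes were called. From day 3 to day 7 the KO changes were 0.14, 0.07 and 0.27 for Hbb-bh1, Hbb-y and Hba-x and −0.33 for Alas2, given as descriptions. The change from day 3 to day 7 thus differed between KO and WT by −7.32, −6.68, −5.55 and −3.78 in that order, and by −7.54, −6.67, −5.60 and −3.85 without both WT J1 arrays of day 7. Over all genes, 1.20% had a called difference of this kind below 0 and 1.36% above it. Between KO lines on day 7, all 3 globins read lower in E14 than in J1, and none of the differences was called. E14 minus J1 was −0.91 for Hbb-bh1 (95% interval −1.59 to −0.23, adjusted p = 0.16), −0.65 for Hbb-y (−1.37 to 0.07, 0.42) and −0.76 for Hba-x (−1.38 to −0.13, 0.22). For Alas2 it was −0.10 (−1.29 to 1.10, adjusted p = 0.98). Of the 4 genes 2 had an unadjusted p under 0.05 and 0 were called with limma, where 0.998% of all genes were called. These line tests use day 7 arrays on which the genes were chosen, so they are not independent of that choice.

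Between the WT lines no difference was called on day 7, while the arrays of J1 lay apart. Like those between the KO lines, these tests use the day 7 arrays on which the genes were chosen. Genes chosen for a clear gap between KO and WT may show small line differences through that choice. V6.5 minus J1 was 0.13 for Hbb-bh1 (95% interval −0.55 to 0.81, adjusted p = 0.86), −0.18 for Hbb-y (−0.90 to 0.54, 0.81) and −0.01 for Hba-x (−0.63 to 0.62, 0.99). For Alas2 it was 0.05, with an interval of −1.14 to 1.25 (adjusted p = 0.97). With limma 0 of 4 were called and 0 had an unadjusted p under 0.05, where 0.993% of all genes were called. The Alas2 value rests on the 2 J1 arrays together, since V6.5 minus J1 was −1.53 without WT J1 replicate 1 and 1.63 without replicate 2. Each of these fits holds a lone J1 array of day 7. The spread between the J1 arrays does not enter them, so only the sizes are given.

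All 4 genes ordered the WT arrays of day 7 alike: J1 replicate 1 was lowest, then V6.5 replicate 2, V6.5 replicate 1 and J1 replicate 2. Replicate 2 of J1 exceeded replicate 1 by 1.89-fold at Hbb-bh1, 2.63-fold at Hbb-y and 2.57-fold at Hba-x. At Alas2 the same pair was 8.92-fold apart, against 1.79-fold between the V6.5 arrays. The heme enzyme gene thus varied more between repeat arrays of J1 than the globins did, a spread on the arrays that was not tested.

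Lists of other cell types were read on the same 4 arrays, as WT array minus the mean of the 4 KO arrays of day 7. In WT J1 replicate 1 the globins exceeded the KO mean by 6.88, 6.01 and 5.11, while the mean of 18 markers of other blood cells lay at −0.04. In that array 18 endothelial genes lay at −0.43 and 19 genes of visceral endoderm and yolk sac at −0.59. In WT J1 replicate 2 the same 3 lists lay at 2.13, 1.10 and 1.04, and in V6.5 replicate 1 at 0.46, 1.02 and 0.56. In V6.5 replicate 2 they lay at −0.10, 0.63 and 0.06. The globins were thus high on 2 arrays whose other blood markers averaged near the KO mean. List means of red cell genes were also low on these arrays. Heme enzymes, membrane genes and regulators lay at 0.11, 0.19 and 0.18 in J1 replicate 1, and at 0.46, 0.43 and 0.55 in V6.5 replicate 2. A list mean near the KO mean therefore does not set other blood cells apart from red cells. In absolute level, the other blood markers averaged 6.40 to 6.51 in KO arrays and 6.36 to 8.59 in WT arrays of day 7. Markers of cardiac muscle averaged 7.10 to 7.31 in KO and 7.36 to 8.38 in WT. Genes of the feeder fibroblast list averaged 7.81 to 8.30 in KO and 7.89 to 9.29 in WT. On day 0 that list already differed, with averages of 8.08 to 9.14 in KO and 7.58 to 7.91 in WT arrays (median KO minus WT 0.72). The median change of that list was −0.77 in WT and −1.13 in KO from day 0 to day 3. From day 3 to day 7 it was 1.59 in WT and 0.36 in KO. The MEFs had been removed before EB formation, and which cells held these transcripts on day 7 was not tested. The part of these lists in the globin values was not tested.

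**Figure D3:**
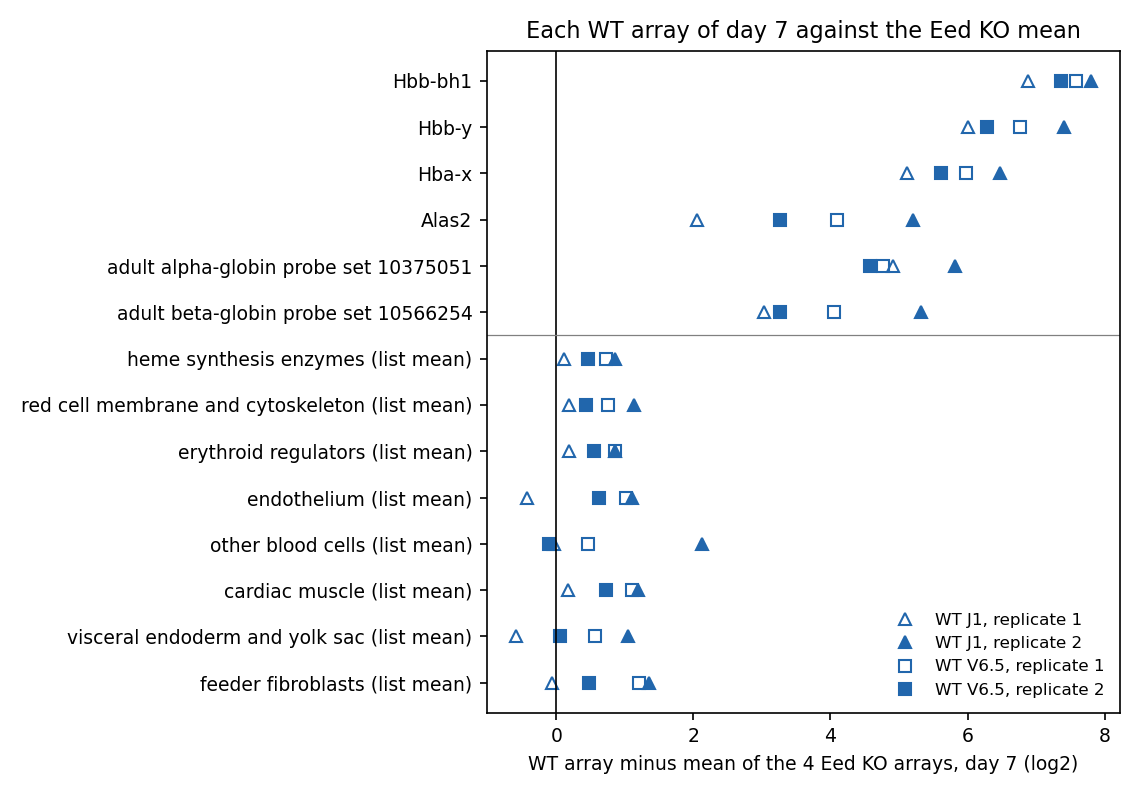
Each WT array of day 7 minus the mean of the 4 Eed KO arrays of that day (log2), for single genes and adult globin probe sets above the line and for list means below it. The embryonic globins lie above 5 on all 4 arrays, while the list means drawn here lie between −0.59 and 2.13.

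Adult globin probe sets were also lower in KO on day 7. The adult genes are near-identical copies, and their probe sets carry several symbols, so they were added to the fit (21559 probe sets and genes) after seeing the data. The alpha-globin probe set 10375051 (Hba-a1 and Hba-a2) read 7.96, 7.78, 8.07 and 8.25 in KO arrays of day 7, against 12.93, 13.83, 12.78 and 12.59 in WT arrays. KO was lower by −5.02 (SE 0.190, adjusted p = 2.9e-14), and the second alpha probe set, 10375058, by −4.98 (SE 0.198, adjusted p = 4.3e-14). For the beta-globin probe set 10566254, which carries Hbb-b1, Hbb-b2, Hbb-bs and Hbb-bt, the KO levels were 6.5, 6.17, 6.88 and 6.89 and the WT levels 9.64, 11.93, 10.66 and 9.87. KO was lower by −3.92 (SE 0.350, adjusted p = 4.5e-08), and the probe set 10566258 of the same genes by −4.47 (SE 0.364, adjusted p = 9.7e-09). Without both WT J1 arrays of day 7 the differences of these 4 probe sets were −4.75, −4.68, −3.70 and −4.27. None of the 4 was called on day 0 or day 3, with adjusted p-values of 0.96 or more. These short, similar transcripts can share hybridisation with the embryonic globins, which was not tested.

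In the list of adult globins and globin partners, 6 genes had a probe set of 1 symbol: Hbb-bh2, Hbq1a, Hbq1b, Mb, Ngb and Cygb. The adult genes of the probe sets above are not among them, so this count does not cover those genes. Of the 6, 1 was lower in KO on day 7, where 1.28% of all genes were called lower and 3.08% higher. This was the beta-type gene Hbb-bh2 at −1.32 (SE 0.211, adjusted p = 0.00011). It read 5.56 to 5.90 in KO and 6.55 to 7.78 in WT arrays. It lies just before Hbb-bh1 among measured genes, and its sequence is similar to that of its neighbours. The theta globins Hbq1a and Hbq1b, the nearest genes after Hba-x with a probe set of 1 symbol, differed by −0.02 and −0.10 (adjusted p = 0.96 and 0.69). The median of the 6 genes was −0.11, against −0.04 over all genes.

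The 3 nearest measured genes on each side of the 4 genes were 18 in all. Of these 18, Hbb-bh2 alone was called on day 7, as lower, where 1.28% of all genes were called lower and 3.08% higher. Only genes with a probe set of 1 symbol were counted, so the adult globin genes were passed over. Their probe sets were called lower in KO, at −5.02 and −4.98 (alpha) and −3.92 and −4.47 (beta). The olfactory receptor genes that flank the beta-globin cluster, Olfr68, Olfr67, Olfr66, Olfr64 and Olfr65, differed by −0.23 to −0.04. Beside Hba-x, Nprl3 differed by −0.18 (adjusted p = 0.57) and Mpg by −0.04 (0.89). The alpha-globin enhancers are known to lie within Nprl3. Rhbdf1, farther out, differed by −0.46 (SE 0.139, adjusted p = 0.023), under 2-fold. Beside Alas2, Apex2, a DNA repair gene, differed by −0.10 (adjusted p = 0.79) and Gnl3l, a nucleolar GTPase gene, by 0.79 (SE 0.193, adjusted p = 0.0058).

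Of the remaining heme synthesis enzymes, 2 of 7 measured were lower in KO on day 7 and none higher, where 1.28% of all genes were called lower and 3.08% higher. The list median was −0.49, against −0.04 over all genes. Ppox, which oxidises protoporphyrinogen, read 8.26 to 8.51 in KO and 9.22 to 10.24 in WT, a difference of −1.47 (SE 0.194, adjusted p = 9.1e-06). Cpox, the step before it, read 8.28 to 8.62 in KO and 8.70 to 10.19 in WT (−1.06, SE 0.224, adjusted p = 0.0018). Without the clone KO E14 (−1.0) or WT V6.5 (−0.94) Cpox came under 2-fold. It also did so without KO E14 replicate 2 (−0.99), WT J1 replicate 2 (−0.82) or WT V6.5 replicate 1 (−0.93) of day 7. The last enzyme, Fech, which inserts iron, differed by −0.68 (SE 0.188, adjusted p = 0.015), and the second, Alad, by −0.49 (SE 0.113, adjusted p = 0.0037), both under 2-fold. Uros and Urod, of the middle of the pathway, differed by −0.38 and −0.17 (adjusted p = 0.18 and 0.60). Alas1, the housekeeping counterpart of Alas2, differed the other way by 0.50 (SE 0.131, adjusted p = 0.010), also under 2-fold. It read 8.85 to 9.23 in KO and 8.47 to 8.71 in WT arrays.

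**Figure D4:**
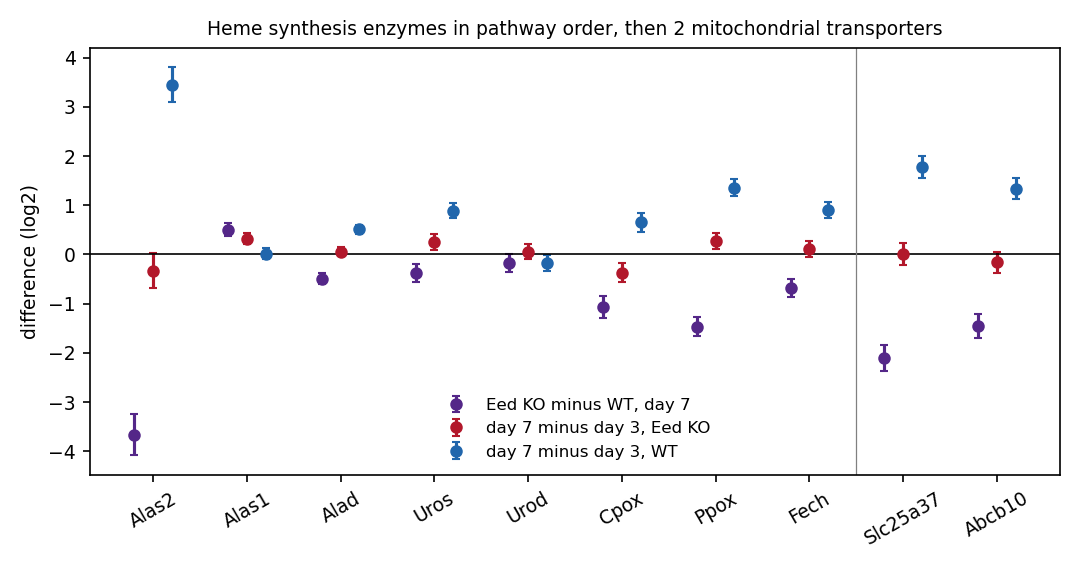
Differences (log2, with bars of 1 standard error) of heme synthesis enzymes in pathway order and of 2 mitochondrial transporters: Eed KO minus WT on day 7, and day 7 minus day 3 in Eed KO and in WT. Alas2 stands at −3.66, the other enzymes between −1.47 and 0.50.

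From day 3 to day 7 in WT, 1 of these 7 enzymes was higher, Ppox at 1.36 (SE 0.165, adjusted p = 9.8e-07), where 3.78% of all genes were. Without both WT J1 arrays of day 7, 2 of 7 were higher, Ppox (1.51) and Uros (1.0). In the fit over all arrays Fech gained 0.90 and Uros 0.89, under 2-fold, and Urod changed by −0.17. In KO over the same days 0 of 7 were called with limma, against 2.00% of all genes, and 1 had an unadjusted p under 0.05. On days 0 and 3, KO against WT, 0 of 7 enzymes were called with limma, where 0.552% and 0.757% of all genes were. On each day 1 of the 7 had an unadjusted p under 0.05.

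Genes for iron supply and heme handling mostly did not follow. Of 27 measured, 2 were lower and 1 higher in KO on day 7 (list median 0.10), where 1.28% of all genes were lower and 3.08% higher. The share higher in the list was thus near that of all genes. The lower ones both serve mitochondrial heme synthesis. Slc25a37, or mitoferrin-1, which imports iron into mitochondria, read 8.04 to 8.36 in KO and 9.31 to 11.25 in WT (−2.10, SE 0.269, adjusted p = 5.7e-06). Abcb10, a mitochondrial transporter that stabilises mitoferrin-1, read 7.99 to 8.69 in KO and 8.79 to 10.18 in WT (−1.45, SE 0.245, adjusted p = 0.00019). Tfrc, the transferrin receptor, differed by 0.25 (SE 0.200, adjusted p = 0.46). The iron exporter Slc40a1 was 1.16 higher (SE 0.398, adjusted p = 0.049), a call that most alternatives did not keep, with an adjusted p of 0.61 without the clone KO E14. It read 10.49 and 10.06 in E14 KO but 8.72 and 9.01 in J1 KO, against 7.29 and 9.0 in J1 WT and 8.75 and 8.61 in V6.5 WT.

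Of 26 measured genes of the red cell membrane and its cytoskeleton, 7 were lower and 1 higher in KO on day 7 (list median −0.51), where 1.28% of all genes were lower and 3.08% higher. Epb42, which ties the membrane to its skeleton, was lower by −2.17 (SE 0.264, adjusted p = 3.0e-06). Rhag, the Rh-associated glycoprotein, was lower by −2.12 (SE 0.475, adjusted p = 0.0030), with KO arrays at 4.35 to 4.55 and WT arrays at 5.02 to 8.31. Without the clone KO J1 its call was lost (adjusted p = 0.057). The blood group gene Kel was lower by −2.01 (SE 0.375) and the anion exchanger gene Slc4a1, or band 3, by −1.92 (SE 0.303), with adjusted p-values of 0.00054 and 9.2e-05. Rhd, the gene of the Rh blood group protein, went the other way and was 1.22 higher (SE 0.239, adjusted p = 0.00087), reading 7.28 to 8.43 in KO and 6.37 to 6.68 in WT. Without the clone KO J1 the Rhd difference was 0.85, under 2-fold. The globin chaperone gene Ahsp had no probe set of its own symbol alone and was not analysed here.

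Of 26 regulators of red cell formation, 9 were lower and none higher in KO on day 7 (list median −0.44), where 1.28% of all genes were lower and 3.08% higher. Gata1, the master regulator of red cell genes, read 6.60 to 6.81 in KO and 7.78 to 9.37 in WT (−2.10, SE 0.257, adjusted p = 3.2e-06). Its cofactor gene Zfpm1, which encodes FOG1, was lower by −1.84 (SE 0.262, adjusted p = 2.4e-05), and Nfe2, a globin activator, by −1.70 (SE 0.216, adjusted p = 5.3e-06). Klf1, which binds CACCC sites of globin promoters, read 6.20 to 6.89 in KO and 7.56 to 8.78 in WT (−1.58, SE 0.219, adjusted p = 1.7e-05). The erythropoietin receptor gene Epor was lower by −1.32 (SE 0.241, adjusted p = 0.00044), and by −0.89 without the clone WT V6.5, under 2-fold. Bcl11a, which silences embryonic globins in adult red cells, differed by 0.74 (SE 0.196, adjusted p = 0.011), under 2-fold, and by 1.01 without the clone WT J1. On WT J1 replicate 1, the array with the lowest globins of day 7 WT, Gata1, Klf1, Zfpm1 and Nfe2 were also the lowest of the 4 WT arrays. In WT from day 3 to day 7, 13 of the 26 were higher and 2 lower, where 3.78% and 2.45% of all genes were, among them Gata1 (2.02 higher), Klf1 (1.25 higher) and Bcl11a (−1.23). On day 0 and day 3, KO against WT, 0 of the 26 were called with limma, where 0.552% and 0.757% of all genes were. On these days 6 and 5 of the 26 had an unadjusted p under 0.05.

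Markers of other cell types also differed on day 7. Of 18 endothelial genes 3 were lower in KO, of 18 markers of other blood cells 4 and of 20 cardiac genes 7. Of 15 genes of the feeder fibroblast list 4 were lower. None was higher in these lists, where 1.28% of all genes were lower and 3.08% higher. Of 19 genes of visceral endoderm and yolk sac, 1 was lower and 1 higher. Some of these counts moved with the arrays used. The endothelial genes that were lower were Kdr, Tie1 and Egfl7, and all 3 lost their calls without the clone KO E14 (−1.45, −0.38 and −0.86, adjusted p = 0.058, 0.65 and 0.20). Within line J1, 0 of the 18 endothelial genes were called (median 0.05, against −0.06 over all genes). In that comparison 8 of 18 markers of other blood cells, 5 of 20 cardiac genes and 3 of 15 genes of the feeder list were lower in KO. Of the 19 genes of visceral endoderm and yolk sac, 3 were lower and 1 higher. The share of all genes called within J1 is not given here. Endothelial genes lower numbered 7 without both WT J1 arrays of day 7, 6 without replicate 1 alone, and 1 without replicate 2 alone or without WT V6.5 replicate 1. For the other blood cells the count was 1 without both, 7 without replicate 1 and 0 without replicate 2. It was 2 without KO E14 replicate 2 and 7 without WT V6.5 replicate 2 of day 7. For visceral endoderm and yolk sac it was 3 without both and 5 without WT J1 replicate 1, and it was 2 when replicate 2 of day 7 was left out for WT V6.5 or for KO E14. Under the alternatives other than single arrays left out, this yolk sac count of genes lower ran from 0 to 3. Genes of the feeder list that were lower numbered 6 without both WT J1 arrays and 2 without the clone KO E14 or without WT V6.5 replicate 1. The cardiac count stayed at 6 to 8 under the alternatives run. The other blood genes that were lower were the platelet integrin gene Itga2b (−1.34), the platelet gene Gp9 (−1.10), the granule enzyme gene Mpo (−1.09) and the myeloid regulator gene Spi1 (−1.09). Gp9, Mpo and Spi1 lost their calls without both WT J1 arrays of day 7, at −0.65, −0.93 and −0.72, under 2-fold. Without WT J1 replicate 2 of day 7 alone, all 4 came under 2-fold, at −0.90 for Itga2b, −0.59 for Gp9, −0.78 for Mpo and −0.56 for Spi1. Gp9 and Spi1 also lost their calls without either KO clone (adjusted p of 0.096 to 0.21), and Itga2b without KO E14 (0.055). Of 14 pluripotency genes 12 were higher in KO (median 2.82), where 3.08% of all genes were called higher, among them Pou5f1 at 3.12 (SE 0.176, adjusted p = 1.4e-11).

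The genes most like the 4 across the experiment were found by the root mean square difference of their standardised levels over the 12 means of clone and day. This was done among 1286 genes whose means spanned at least 2 on the log2 scale. Hbb-y and Hba-x were closest to each other (0.058), followed by Hbb-bh1 with Hba-x (0.0633) and with Hbb-y (0.076). Alas2 lay farther from the globins, at 0.102 to 0.121. Outside the 4, P2rx1, which encodes an ATP-gated ion channel, came closest to each globin (0.118 to Hbb-bh1, 0.115 to Hbb-y and 0.105 to Hba-x), and Pkhd1l1 came closest to Alas2 (0.0971). P2rx1 read 5.62 to 6.14 in KO and 6.48 to 9.08 in WT arrays of day 7 (−2.05, SE 0.366). Pkhd1l1 read 5.25 to 5.34 in KO and 6.25 to 8.86 in WT arrays (−2.19, SE 0.335). Without both WT J1 arrays of day 7 the differences were −2.16 for P2rx1 and −2.15 for Pkhd1l1. Also near were Lcp2, an adaptor gene of blood cell signalling (0.154 to 0.178 from the globins), and Rhag (0.146 to 0.171 from Hbb-y, Hba-x and Alas2). Epb42 lay 0.185 from Hbb-bh1 and 0.156 from Alas2. The measure includes the WT arrays of day 7, on which the 4 genes were chosen, so it is a description. The day 7 differences of genes found by it follow from that choice and are descriptions too.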

How the data were processed

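RNA levels came from 24 Affymetrix Mouse Gene 1.0 ST arrays. Each deposited value is a log2 level of 1 probe set; per the submitters' processing notes the authors used Affymetrix Power Tools and RMA, with versions not stated here. RMA subtracts background, brings arrays to common quantiles and combines a probe set's probes, which compresses differences near background. Of 35556 probe sets, 21789 had 1 symbol, 1621 several and 12146 none or no entry. The highest-mean probe set stood for a gene, which left 19938 genes, unfiltered. Differences came from limma 3.58.1 and statmod 1.5.0 in R 4.3.3, with 6 genotype-by-day means and the clone as a random block (consensus correlation 0.161, 18 residual degrees of freedom). Line differences came from 12 means (12 residual degrees of freedom). Code was tested on simulated data.

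The members and gene lists were chosen with earlier results of these data known. Named genes were the members, all measured heme enzymes, up to 4 called genes each way of each list by day 7 difference, fixed regulators, the 3 nearest measured genes on each side and the 4 most like genes. Promoter windows came from RefSeq (GRCm38.p6). Alternatives changed the block, normalization, filter, probe set rule, variance prior, clones or arrays.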

Additional observations from a re-analysis of the deposited data

Results flagged for a closer look

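For 34 named genes outside the 4, KO and WT differed in how the level moved between days 3 and 7, by the interaction test of limma (adjusted p under 0.05 and at least 2-fold). For 27 of them the difference of the changes, KO minus WT on the log2 scale, lay below 0 and for 7 above it. Over all genes, 1.20% were called lower and 1.36% higher by this test. Without both WT J1 arrays of day 7, 33 of the 34 kept their calls, Mpo being the exception (−0.99). Most of these genes were named for their day 7 difference, which shares arrays with this test. P2rx1, Pkhd1l1 and Lcp2 were named for their likeness to the 4, which also uses those arrays.

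The values were −1.02 for Cpox and −1.08 for Ppox among the heme enzymes, −1.22 for Hbb-bh2, and −1.77 for Slc25a37 and −1.50 for Abcb10 among the mitochondrial transporters. Among the membrane genes they were −2.24 for Epb42, −2.23 for Rhag, −1.92 for Kel and −1.88 for Slc4a1, and 1.08 for Rhd. Among the regulators they were −2.04 for Gata1, −2.05 for Zfpm1, −1.54 for Nfe2 and −1.31 for Klf1, and 1.24 for Bcl11a. The genes most like the 4 stood at −2.13 for P2rx1, −2.11 for Pkhd1l1 and −1.99 for Lcp2.

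Among the markers of other cell types, the endothelial gene Kdr stood at −2.83, and Itga2b and Mpo of other blood cells at −1.47 and −1.14. The yolk sac list gave −3.86 for Tdo2. Cardiac genes stood at −4.88 for Tbx20, −2.82 for Hand1, −2.23 for Tnni1 and −1.58 for Actc1. Genes of the feeder fibroblast list stood at −4.02 for Acta2, −1.63 for Col1a1 and −1.24 for Col1a2. The pluripotency genes stood at 3.25 for Pou5f1, 2.78 for Nanog, 2.66 for Dppa5a, 1.97 for Esrrb and 1.85 for Zfp42.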

How the results depend on the processing

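The day 7 difference of each of the 4 genes kept its sign under every alternative run. With settings or clones changed it ran from −7.86 to −6.95 for Hbb-bh1, −6.94 to −6.29 for Hbb-y, −6.17 to −5.41 for Hba-x and −4.08 to −3.61 for Alas2. With 1 array left out at a time it ran from −7.63 to −7.18, −6.86 to −6.36, −6.04 to −5.56 and −4.23 to −3.12 in that order. Of 880 values of the tested comparisons of these genes under alternatives, 2 gave a call, both for Alas2 between the WT lines on day 7 (−1.53 and 1.63, each without 1 WT J1 array). Measured in the 5 red cell lists were 7 heme enzymes, 6 globins and partners, 27 iron and heme genes, 26 membrane genes and 26 regulators. Over these lists 2 genes were higher and 21 lower in KO on day 7, where 3.08% of all genes were called higher and 1.28% lower. Genes higher numbered 1 with the arrays of a line averaged, with quantile normalization, with arrays centred on their median and without the clone KO E14 or WT V6.5, 4 without the clone WT J1, and 10 with no fold minimum. Genes lower ran from 16 to 35 with settings or clones changed, the 35 being with no fold minimum. By list, these counts ran from 4 to 13 for membrane genes, 6 to 12 for regulators, 1 to 4 for heme enzymes and 2 to 5 for iron and heme genes. With 1 array left out, the counts were 1 to 3 higher and 18 to 24 lower. Replicate numbers were not treated as pairs in the main fit. Over 66 pairs of groups, the differences between replicates 1 and 2 correlated at −0.40 to 0.47 (median 0.06), with 30 over 0.1. These values cannot exclude deviations shared by arrays of the same number in some groups. With the replicate block, 1 gene was higher and 21 were lower, and Slc40a1 lost its call (adjusted p = 0.057). A fit with 1 array of a clone left out assumes that the lone array varies like the other groups. For Alas2 between the WT lines, such a fit omits the spread between the J1 arrays. Those 2 calls are therefore not read as line differences. The arrays number 4 per genotype and day, from 2 clones, and this limits the precision. Low signals lie near background, so folds against them may be too small.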
